A study of Oryza sativa Japonica Group with 2 samples.

Results

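Some of the genomic regions called as enriched for FLAG-tagged NF-YC11 in rice endosperm were reported with more than 1 local maximum of ChIP signal. These multi-summit regions are described here. They were chosen by the summits that the authors' peak caller placed on the ChIP pileup: a region belongs here where 2 or more rows of the authors' list share its chromosome, start and end, each row with another summit. There were 223 of them among 4193 regions (5.32%), and they held 475 of the 4445 summits (10.7%). They covered 89.0 kb, which is 9.84% of the 904 kb in all regions. The other 3970 regions had 1 summit each.

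The data are from chromatin immunoprecipitation followed by sequencing (ChIP-seq) in Oryza sativa Japonica Group. The first of 2 libraries was precipitated with an anti-FLAG antibody from endosperm that carries NF-YC11-FLAG, at 7 days after pollination. The second is the input, chromatin of endosperm of the same stage that was not precipitated. There is 1 library per group, so no value has a replicate error, and an untagged precipitation was not analysed here. The labels do not name the promoter of the tagged gene.

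NF-Y is a transcription factor made of the subunits NF-YA, NF-YB and NF-YC. NF-YB and NF-YC pair through histone-fold domains, and NF-YA joins the pair and makes the contacts that recognise the CCAAT box. In plants each subunit is encoded by a gene family. The endosperm is the starch-storing tissue of the rice grain. A peak caller reports several summits when the fragment pileup inside 1 continuous region has more than 1 maximum. Such maxima can lie over separate bound sites, and counting noise can also give them.

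Each summit comes with a pileup, the number of ChIP fragments over that base, and a fold enrichment, the ratio of ChIP to the local input background. The background was recovered from these 2 values, in fragments scaled to the ChIP library. A region takes its fold and its background from the summit with the highest fold. The smallest pileup in the list was 14 fragments and the largest 285. Intervals on a pileup or a fold are 95% Poisson intervals, and those on a share are exact 95% Clopper-Pearson intervals; both cover counting error only and treat fragments and regions as independent. Since the pileup itself decided which regions have several summits, the width, summit number, pileup and fold of these regions are given as a description, and no test was run on them. Position along the chromosome took no part in the choice, but with 1 library per group it was not tested either. Coordinates are as deposited, and the labels name no build for them. Genes, annotations and DNA sequence at the summits were not analysed here.

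Nearly all multi-summit regions had just 2 summits. There were 205 with 2, 10 with 3, 6 with 4, 1 with 5 and 1 with 6. Regions with 2 summits had a median width of 335 bp, against 187.5 bp for regions with 1 summit, and a median highest pileup of 29 against 24 fragments. Their median fold was 2.54, against 2.72 for regions with 1 summit, with median backgrounds of 8.93 and 7.49 fragments. Of the 10 regions with 3 summits, 7 had a background above 40 fragments, a level called high background here and chosen with the values known. Of all 18 regions with 3 or more summits, 11 were high-background regions.

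The strongest multi-summit region was at chromosome 3, 28826202 to 28828434, 2233 bp wide with 5 summits. From low to high coordinate, the summits had pileups of 107 fragments (95% Poisson interval 87.7 to 129), 48 (35.4 to 63.6), 65 (50.2 to 82.8), 63 (48.4 to 80.6) and 79 (62.5 to 98.5). The first was the tallest, and its interval did not overlap those of the next 3 summits, while it did overlap that of the last. The fold enrichments in the same order were 11.3, 7.03, 6.18, 7.69 and 8.70, over backgrounds of 5.97 to 9.68 fragments. The summits lay 378, 529, 257 and 620 bp apart, and the last of these was the widest spacing in the list. All 5 maxima of this region therefore had listed folds of more than 6 over input. The 95% Poisson interval of the lowest fold, 6.18, ran from 4.79 to 7.85.

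The region with most summits was at chromosome 4, 28870413 to 28872234, 1822 bp wide with 6. Its pileups were low and close to each other, at 31, 26, 21, 22, 24 and 27 fragments from low to high coordinate. The interval of the tallest (21.1 to 44.0) and that of the lowest (13 to 32.1) overlapped. The fold enrichments were 5.03, 4.26, 3.47, 2.72, 3.25 and 4.35 over backgrounds of 5.34 to 7.45 fragments. The outermost summits on both sides thus had the highest pileup values and the highest folds, within counting error.

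The regions with 4 summits at low background were both on chromosome 11. In the region at 18301304 to 18302866, 1563 bp wide, the pileups were 71, 68, 61 and 21 fragments. The first 3 had overlapping intervals, and the last (13 to 32.1) lay below all of them, of which the lowest was 46.7 to 78.4. Its fold was 2.39, against 9.27, 6.95 and 9.50 at the other summits. With the lowest pileup at 0.296 of the highest, this was the least even region of all 223. In the region at 12351988 to 12352897, 910 bp wide, the pileups were 30, 40, 38 and 44 fragments, and all intervals overlapped. Its folds were 5.30, 7.01, 6.66 and 7.69, and all 4 summits had the lowest background of the list, 4.85 fragments, and their folds differed only with the pileup. This lowest value was shared by many regions. It was also the median background of the 246 regions with 1 summit and a background up to 5 fragments.

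The other 4 regions with 4 summits had high signal in both libraries. On chromosome 12 they were at 20506276 to 20507105, 20628230 to 20629071 and 20638395 to 20639597, and on chromosome 9 at 4693903 to 4694876. Their pileups ran from 188 to 251 fragments over backgrounds of 109 to 185. Folds ran from 1.30 to 1.43 in 3 of the regions. The region at 20638395 to 20639597 had pileups of 211, 227, 242 and 251 with folds of 1.92, 1.38, 1.47 and 1.40. Its first summit had the lowest pileup of the 4 but the highest fold, over a background of 109 fragments, against 164 to 179 at the others.

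**Figure D1:**
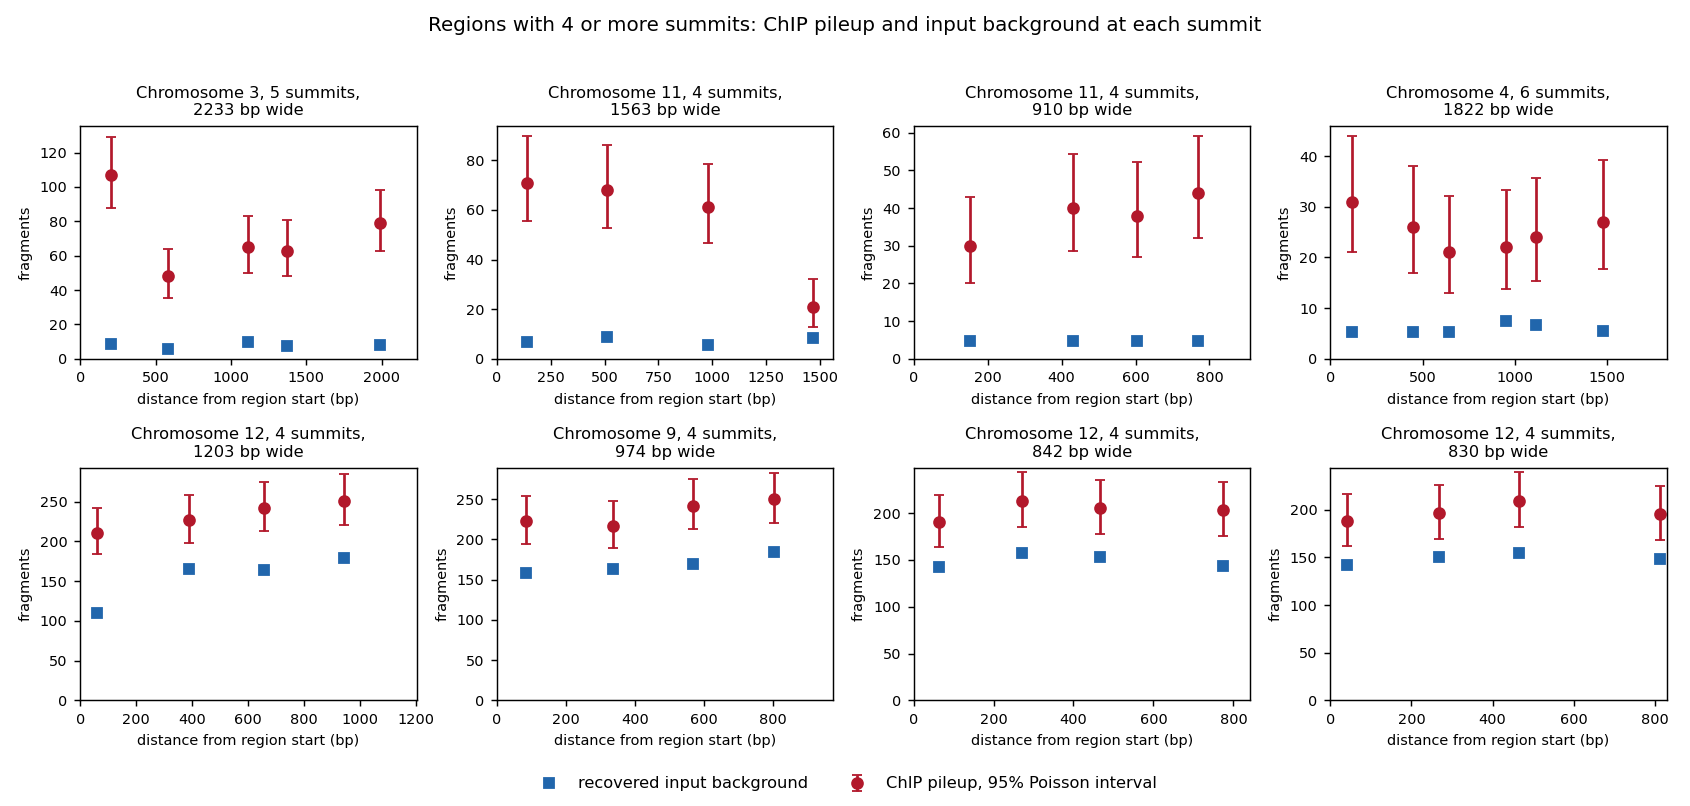
ChIP pileup (circles, with 95% Poisson intervals) and recovered input background (squares), both in fragments, at each summit of the 8 regions with 4 or more summits, against the distance from the region's start in bp. In the top row the background lies at 4.85 to 9.68 fragments, far below nearly every summit, whereas in the bottom row it lies at 109 to 185 fragments, close under the ChIP pileup.

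Regions with 3 summits and a background up to 40 numbered 3, and they are named after their values were seen. Those at chromosome 7, 19515331 to 19515947 and 19533436 to 19534061, belong to 1 stretch of 18.7 kb. Their pileups were 37, 35 and 30 fragments in the first and 30, 27 and 23 in the second, with folds of 2.10 to 2.65. The region at chromosome 6, 21818269 to 21818815, had 25, 34 and 35 fragments, and its folds were 2.0, 1.93 and 1.99. Within each of these 3 regions the intervals of all summits overlapped.

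High enrichment was found in few multi-summit regions. A fold of at least 5 was reached by 5 of the 223 (2.24%), against 25 of the 3970 regions with 1 summit (0.630%) and 0.715% of all regions. Since the pileup behind the fold also decided the choice, nothing is read from this difference. Of these 5, the one not yet described was at chromosome 4, 32336396 to 32337305, with 89 fragments (71.5 to 110) at 7.40-fold and 66 fragments (51.0 to 84.0) at 5.86-fold, 532 bp apart. A fold of at least 3 was reached by 43 multi-summit regions (19.3%) and 1236 regions with 1 summit (31.1%), against 30.5% of all regions. A −log10 q of at least 5 was listed for 36 multi-summit regions (16.1%) and 587 regions with 1 summit (14.8%), against 14.9% of all regions.

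The other 5 of the 10 multi-summit regions with the highest fold had 2 summits and folds under 5. The region at chromosome 1, 43194144 to 43194733, had 22 and 37 fragments at 3.43-fold and 4.93-fold, and the pair lay 383 bp apart. The region at chromosome 11, 18290001 to 18290401, had 27 and 25 fragments at 4.78-fold and 4.44-fold. The region at chromosome 12, 945157 to 945486, had 20 and 33 fragments at 2.49-fold and 4.57-fold. The remaining ones were at chromosome 8, 147895 to 148449, with folds of 2.92 and 4.16, and at chromosome 10, 2182830 to 2183163, with folds of 2.92 and 3.91. In all 5 the Poisson intervals of the 2 pileups overlapped.

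Neighbouring summits of a region lay a median of 196 bp apart over 252 pairs, with quartiles of 153 and 246 bp. The protocol sheared chromatin to 200 to 500 bp. The narrowest region of the list, 149 bp, serves here as an estimate of the fragment length used in calling, which no label states. A spacing from 149 to 300 bp was found in 169 pairs (67.1%), one above 300 bp in 24 pairs and one above 400 bp in 5 pairs. Those 5 were the spacings of 471 and 486 bp at chromosome 11, 18301304 to 18302866, of 529 and 620 bp at the chromosome 3 region, and of 532 bp at chromosome 4, 32336396 to 32337305. All lay in regions of at least 7-fold.

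Other pairs of summits were closer than 1 fragment. A spacing under 149 bp was found in 59 pairs (23.4%), under 100 bp in 29 and under 50 bp in 11. The closest was at chromosome 2, 34351223 to 34351388, where summits 3 bp apart both had 19 fragments and a fold of 2.18. Summits nearer than a fragment share fragments, so their pileups are not independent counts. When such summits were counted as 1, 166 multi-summit regions remained. Pairs under 149 bp had a median ratio of lower to higher pileup of 0.905, against 0.886 for pairs further apart, and their lowest ratios were 0.630 and 0.341.

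Spacing was wider at high background. The 67 pairs of high-background regions had a median spacing of 230 bp with quartiles of 196 and 261 bp, against 182 bp with quartiles of 142 and 228 bp for 185 pairs at background up to 40. Only 4 high-background pairs (5.97%) were closer than 149 bp, against 55 pairs (29.7%) at background up to 40. The longest spacings ran the other way, with a maximum of 368 bp at high background and 620 bp at background up to 40.

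**Figure D2:**
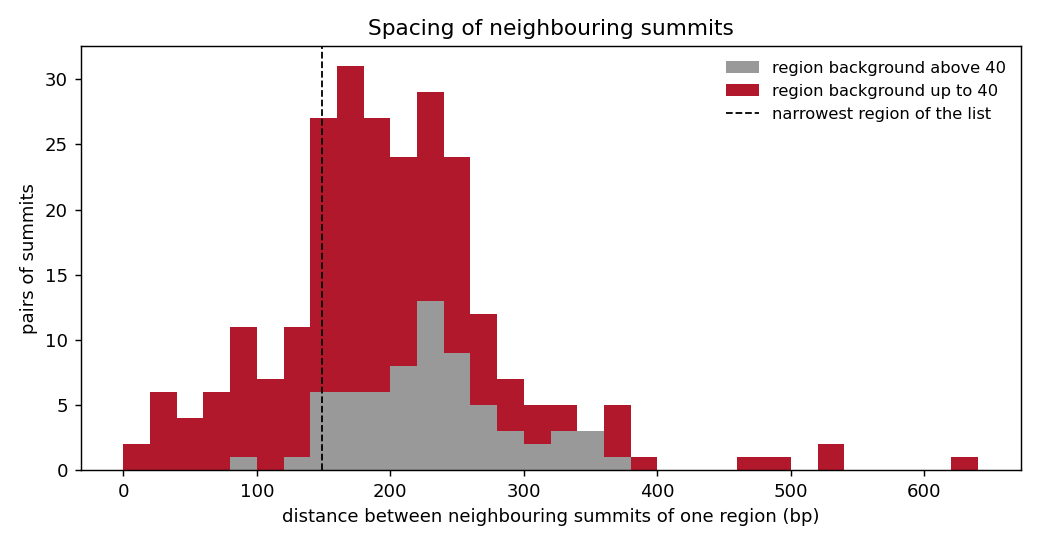
Number of pairs of neighbouring summits in bins of 20 bp of their spacing, stacked by the background of the region, with the narrowest region width of 149 bp as a dashed line. Most pairs lie between 149 and 300 bp, 59 pairs lie left of the line, and the 5 pairs above 400 bp all belong to regions with background up to 40.

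Summits of different regions can also lie this close. Of 320 pairs of consecutive summits up to 620 bp apart, 252 were in the same region and 68 in different regions. Up to 400 bp, 247 pairs were in the same region and 21 in different ones, the closest of these at 253 bp. From there to 620 bp the numbers were 5 and 47. Pairs in 1 region were more frequent up to 400 bp and pairs in different regions above it. The peak caller set the borders of the regions, and 620 bp is the widest spacing within 1 region. The split follows at least in part from the calling and from this range, so nothing is read from it.

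Listed summits within a region were mostly close in pileup. The lowest pileup was a median of 0.876 of the highest, with quartiles of 0.780 and 0.952. Only maxima with a q up to 0.0491 are listed, which leaves out low ones and bounds this ratio from below. Nothing is therefore read from its level. A ratio of at least 0.9 was found in 93 regions (41.7%), from 0.8 to under 0.9 in 70, from 0.5 to under 0.8 in 54 and under 0.5 in 6. The pileups were identical in 21 regions, all with 2 summits. The median difference between the highest and the lowest summit was 5 fragments. The Poisson intervals of the highest and the lowest summit were apart in 12 of the 223 regions, 5 of them at background up to 40 and 7 above. They overlapped in the other 211, which does not show that those summits are equally tall.

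Taller regions can show a difference that shorter ones cannot. At background up to 40 the 171 regions had a median ratio of 0.870 and a median difference of 3 fragments, on a median highest pileup of 26. At high background the 52 regions had a median ratio of 0.903 and a median difference of 21 fragments, on a median highest pileup of 224. Median backgrounds were 148 fragments there and 8.19 at background up to 40. A ratio of pileups at high background thus includes much signal that the input also holds. In regions with 3 or more summits the median ratio was 0.838, against 0.884 in regions with 2; the lowest of more values is lower by construction.

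The least even regions lay on chromosomes 3, 9, 11 and 12. After the chromosome 11 and chromosome 3 regions described above, the next at background up to 40 was at chromosome 11, 12185652 to 12185954. It had 51 fragments (38.0 to 67.1) at 1.82-fold and 24 fragments (15.4 to 35.7) at 2.51-fold, so the lower summit had the higher fold. Its neighbour less than 1 kb away, at 12184628 to 12184948, was the least even at high background. The neighbour had 47 fragments (34.5 to 62.5) at 1.88-fold and 138 fragments (116 to 163) at 2.16-fold, over backgrounds of 24.6 and 63.3. The other regions under 0.5 were at chromosome 9, 2808865 to 2809151, with 39 and 85 fragments, and at chromosome 12, 12008805 to 12009128, with 154 and 74 fragments.

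The most even regions had 2 summits each. Identical pileups at background up to 40 were found in 20 regions, and in some of these both summits also had the same fold. Of all 21 tied pairs in the list, 9 lay closer than 149 bp, so their counts are not independent. The tallest of the 20 regions were at chromosome 3, 11032045 to 11032587, with 34 fragments at both summits, and chromosome 2, 21425456 to 21425741, with 29. Next and tied were chromosome 2, 11799211 to 11799605, and chromosome 3, 3804005 to 3804294, with 27. Their folds still differed, at 2.67 and 3.06 in the first, 2.08 and 2.63 in the second, 2.45 and 1.94 in the third and 2.45 and 2.17 in the last, as did their backgrounds. The summits of the last lay 142 bp apart, nearer than the 149 bp taken as a fragment. At high background the most even were chromosome 9, 4730729 to 4731061, with 228 fragments at both summits, chromosome 12, 8531829 to 8532208, with 258 and 259, and chromosome 1, 33539125 to 33539519, with 242 and 241. In that order, their folds were 1.29 and 1.30, 1.38 and 1.34, and 1.39 and 1.31. The chromosome 12 summits lay 122 bp apart, nearer than the 149 bp taken as a fragment, so their counts are not independent.

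**Figure D3:**
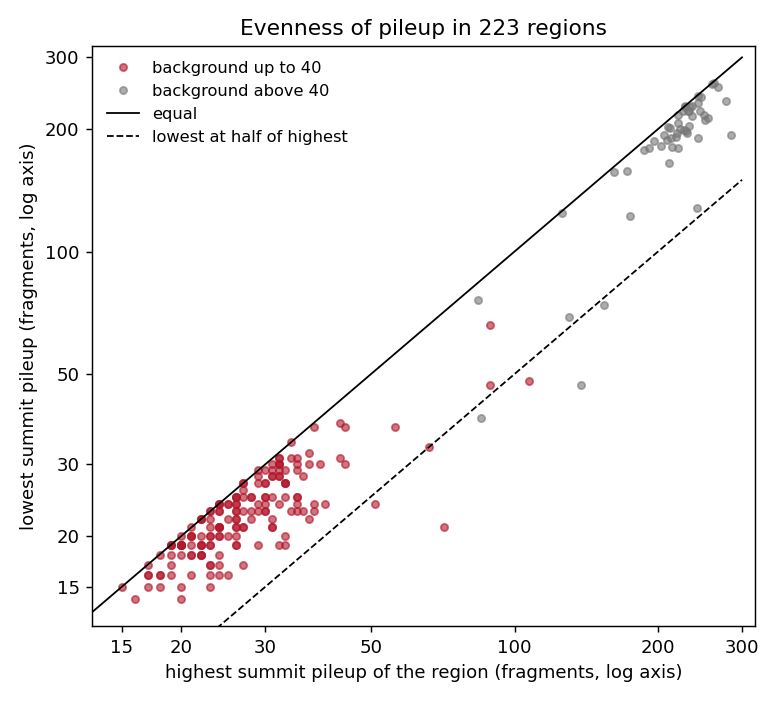
Lowest against highest summit pileup, in fragments on log axes, for each of the 223 multi-summit regions, coloured by background. Most points lie just under the line of equal pileups (median ratio 0.876), and 6 lie below the dashed line that marks a ratio of 0.5.

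The ranking of summits within a region depended on the measure. In 84 of the 223 regions (37.7%) the summit with the highest fold was not a summit with the highest pileup, in 60 of 171 at background up to 40 and in 24 of 52 above. The background differed between the summits of most regions. It was the same to within 0.05% in 17 regions, and the highest was a median of 1.16 times the lowest and at most 3.07 times. In 128 of the 252 pairs the summit at the lower coordinate was taller, in 103 the one at the higher coordinate, and 21 pairs were tied. Among regions with 3 or more summits, the tallest was the first in 8, the last in 6 and an inner one in 4.

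In many multi-summit regions the lowest summit was weak. The lowest summit had a q above 0.01 in 119 multi-summit regions (53.4%), and in the other 104 every summit had a q up to 0.01. The highest summit had a q above 0.01 in 36 multi-summit regions (16.1%), against 1064 of the regions with 1 summit (26.8%). The lowest of several summits is weaker and the highest stronger by construction, so nothing is read from these shares. In the 119 regions the lowest summit had a q between 0.01 and the limit of the list, 0.0491.

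Multi-summit regions were wider. Their median width was 346 bp with quartiles of 289 and 430 bp, against 187.5 bp with quartiles of 161 and 233 bp for regions with 1 summit. A region that holds 2 separated maxima has to be wide, so this follows in part from the choice. The share with several summits was 0.422% of regions up to 200 bp, 8.37% from above 250 to 300 bp, 31.9% from above 350 to 400 bp and 93.3% above 700 bp. Of the regions above 500 bp, 34 had several summits and 11 had 1. The widest region with 1 summit measured 709 bp, at chromosome 8, 20046524 to 20047232, with 26 fragments at 3.86-fold.

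Multi-summit regions wider than that numbered 14, and they were of 2 kinds. In 9 the background was above 40. The other 5 were the 5 multi-summit regions with a fold of at least 5, with widths from 910 to 2233 bp. At the other end, 10 multi-summit regions measured up to 200 bp, down to 149 bp. Measured from its edges inward, a multi-summit region had its first summit a median of 71 bp from the start and its last a median of 81 bp from the end, against 83.5 and 93 bp for the 1 summit of the other regions.

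At like width, the median highest pileup of the multi-summit regions was lower, equal or higher, depending on the class. Up to 200 bp it was 23 fragments in multi-summit regions and 24 in regions with 1 summit, and from above 200 to 250 bp it was 24 in both. In every wider class it was higher in the multi-summit regions, though above 700 bp only 1 region had 1 summit. In each of these wider classes, high background also made up a larger share of the multi-summit regions. From above 300 to 350 bp, 51 multi-summit regions had a median highest pileup of 28 fragments and a median fold of 2.61, against 23 fragments and 2.83 in 184 regions with 1 summit. High background made up 13.7% of these multi-summit regions and 3.26% of these regions with 1 summit. From above 400 to 500 bp, 40 multi-summit regions had a median pileup of 37 fragments, against 20 fragments in 29 regions with 1 summit. In this class, high background made up 40% of the multi-summit regions and 3.45% of the regions with 1 summit.

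**Figure D4:**
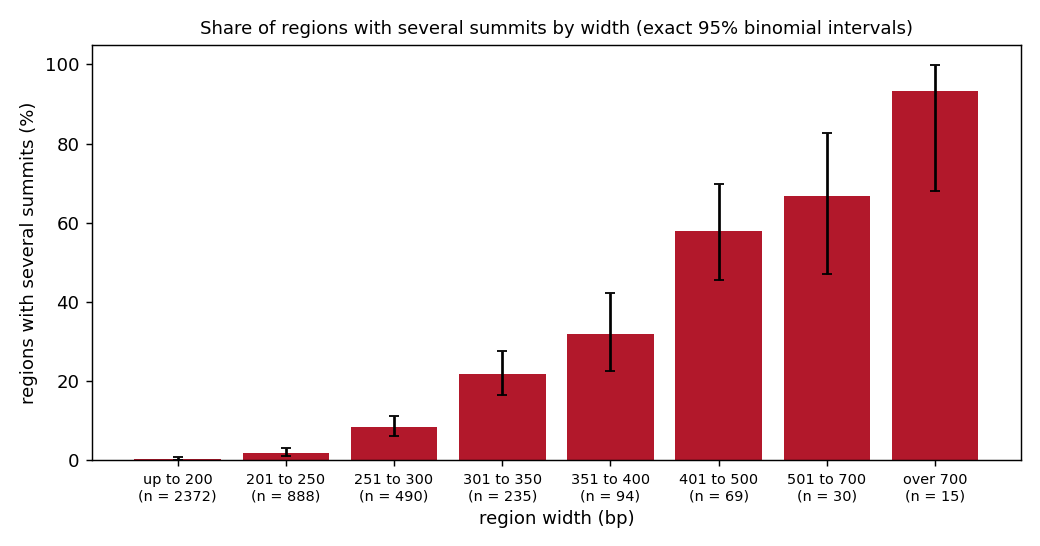
Share of regions with several summits in each class of region width, in percent, with exact 95% binomial intervals; n is the number of all regions in the class. The share is 0.422% at widths up to 200 bp, 21.7% from above 300 to 350 bp and 93.3% above 700 bp.

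High background was common among multi-summit regions. It was found in 52 of 223 (23.3%, interval 17.9 to 29.4), against 117 of 3970 regions with 1 summit (2.95%, 2.44 to 3.52). Of these 52 regions, 41 lay in the 3 loci described below, and the intervals treat such neighbours as independent. Without the largest locus, on chromosome 12, the share of multi-summit regions was 11.9% (23 of 194, 7.67 to 17.3). Seen from the background, several summits were reported in 1.60% of regions up to 5 fragments, 4.16% from above 5 to 10, 5.21% from above 10 to 20, 15.4% from above 40 to 100 (8 of 52, interval 6.88 to 28.1) and 37.6% above 100 (44 of 117, 28.8 to 47.0). The class from above 20 to 40 held 1 multi-summit region among 23. The share also went up with the pileup at background up to 40. It was 2.05% for regions with at most 20 fragments, 4.49% from 21 to 30 and 6.60% from 31 to 40, classes in which no region had a high background.

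The high-background regions differed from the rest in signal. With several summits they had a median highest pileup of 224 fragments and a median fold of 1.46, against 203 fragments and 1.54 with 1 summit. At background up to 40 the median highest pileup was 26 fragments in multi-summit regions and 24 in regions with 1 summit, with median folds of 2.65 (95% interval of the median 2.60 to 2.73, over regions) and 2.73 (2.72 to 2.74). The lowest summits of these multi-summit regions had a median fold of 2.34 and a median pileup of 22 fragments. Pileup and background thus differed between regions with 1 and with several summits, and their part in the number of summits was not tested. The background did not go up steadily with that number. It was 8.54 fragments in the region with 5 summits and 5.36 in the one with 6.

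Most multi-summit regions had no other multi-summit region within 50 kb, and some were gathered in few loci. The nearest region of either kind lay a median of 18.3 kb away, against 28.9 kb for regions with 1 summit. At background up to 40 these medians were 33.8 and 30.3 kb. Joined over gaps of up to 50 kb they formed 176 loci, of which 164 held 1 region, 9 held 2 and 3 held more. These 3 loci contained 41 of the 223 regions. The largest ran from 20459998 to 20650532 on chromosome 12, over 191 kb, and held 29 multi-summit regions with 69 summits among 66 regions (43.9%). Their backgrounds ran from 47.7 to 186 fragments and their highest folds from 1.34 to 2.53, with a median of 1.46.

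The other loci of this kind held 6 multi-summit regions each. On chromosome 1, from 33521556 to 33587477, they made up 6 of 13 regions, with backgrounds of 159 to 189 fragments, a median fold of 1.42 and a median ratio of lowest to highest pileup of 0.966. On chromosome 9, from 4679323 to 4731061, they made up 6 of 12, with backgrounds of 116 to 176, a median fold of 1.42 and a median ratio of 0.929. In all 3 loci every multi-summit region was thus a high-background region.

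Chromosome 12 had the largest share of multi-summit regions. It was 14.0% there (44 of 314, interval 10.4 to 18.4), and on the other chromosomes it lay between 2.69% on chromosome 5 (9 of 335, 1.24 to 5.04) and 7.09% on chromosome 10 (18 of 254, 4.25 to 10.97). Of the 44, 33 were high-background regions. Among regions with background up to 40, the share on chromosome 12 was 4.82% (11 of 228, 2.43 to 8.47). Chromosome 10 then had the highest share, 6.88% (17 of 247, 4.06 to 10.8), and chromosome 9 the lowest, 1.88% (5 of 266, 0.613 to 4.33). These last intervals overlap, and 0 of the 223 regions lay on the unplaced contigs, which held 5 regions.

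**Figure D5:**
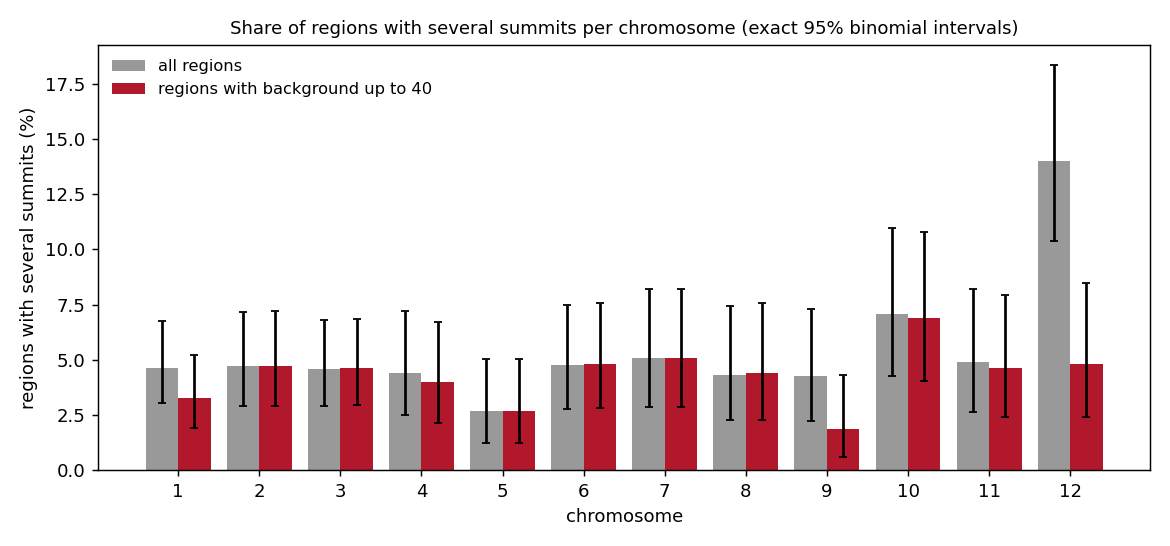
Share of regions with several summits on each of the 12 chromosomes, in percent with exact 95% binomial intervals, over all regions and over regions with background up to 40. Chromosome 12 stands at 14.0% over all regions and at 4.82% at background up to 40, within the range of the other chromosomes.

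Along the chromosomes, shares differed over all regions and less at background up to 40. Each chromosome, taken from its lowest to its highest region, was divided into 5 equal stretches, numbered from low coordinates. Stretch 4 held 79 multi-summit regions (35.4%, 29.2 to 42.1), against 952 of 3965 regions with 1 summit (24.0%, 22.7 to 25.4). It contains the chromosome 12 and chromosome 1 loci. At background up to 40 the share was 43 of 171 (25.1%, 18.8 to 32.3), against 23.3% of regions with 1 summit (21.9 to 24.6). The outer 20% at both ends together held 36.3% of multi-summit regions (30.0 to 43.0), against 42.0% of regions with 1 summit (40.5 to 43.5). At background up to 40 these shares were 40.9% (33.5 to 48.7) and 42.6% (41.1 to 44.2).

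Neighbours were closer for multi-summit regions over the whole list. Another region of either kind lay within 5 kb of 68 of the 223 (30.5%, 24.5 to 37.0), against 525 of the 3970 regions with 1 summit (13.2%, 12.2 to 14.3). At background up to 40 the shares were 13.5% (23 of 171, 8.72 to 19.5) and 11.7% (449 of 3853, 10.7 to 12.7), and the intervals overlapped. At high background they were 86.5% (45 of 52, 74.2 to 94.4) and 65.0% (76 of 117, 55.6 to 73.5). Within 1 kb and at background up to 40, another region was found for 12 multi-summit regions (7.02%, 3.68 to 11.9) and 132 regions with 1 summit (3.43%, 2.87 to 4.05), again with overlapping intervals. These differences in position and in neighbours were not tested, and an overlap of intervals does not show that the shares are alike.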

How the data were processed

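One ChIP and one input library of rice endosperm were compared by the authors. The submitters' processing notes name BWA and MACS2 without versions; the build, mapping filters and duplicate handling are not stated there. The deposited pileup is a signal, a whole number of ChIP fragments. The fold enrichment is, per the file headers, a ratio against the local input. Further deposited columns hold a −log10 p-value and a −log10 q-value, whose spoiled header cells were resolved by column order and by the checks that follow. All 4445 summits occur in the deposited summit list with equal −log10 q.

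Background was computed as (pileup + 1) / fold − 1. A Poisson tail at that background gave each deposited −log10 p to within 0.00032. All multi-summit rows carry a letter suffix on 1 shared peak name (475 rows). Total depth of the libraries is unknown. A region's neighbour distance runs from edge to edge. The functions were tested on simulated regions with planted summits. Python 3.11.15, pandas 2.3.3 and SciPy 1.17.1 were used. Regions named in the text are those with 4 or more summits, the 10 of highest fold, the 3 widest, the closest and widest pair, the 3 most and least even at background up to 40 and above, and loci with 3 or more multi-summit regions. The 3 regions with 3 summits at background up to 40 and the widest region with 1 summit are named outside this rule, after their values were seen. So is the region at chromosome 3, 3804005 to 3804294, which tied with 1 of the most even. Members, limits and lists were chosen with earlier results of these data known. The motif and gene steps that were planned need a genome of the files' build and were not run.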

Additional observations from a re-analysis of the deposited data

How the results depend on the processing

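Alternatives that keep fewer summits changed the description by construction. The 223 multi-summit regions became 110 when each summit needed a −log10 q of 2 or more, and 10 at 5 or more. In that order of settings, their share became 3.56% and 1.61%, the median width 395 and 696.5 bp, the median spacing 224 and 277 bp, the median fold 2.61 and 4.91, and the share at high background 34.5% and 30%. A neighbour within 5 kb was found for 41.8% at the first limit, while at the second the median evenness was 0.840 and the outer share 20% (2 of 10).

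At background up to 40 the share was 4.25%, the median spacing 182 bp, the median fold 2.65 and the share with a neighbour 13.5%. Without the largest high-background locus, on chromosome 12, 11.9% of multi-summit regions had a high background and 20.6% a neighbour. With summits closer than 149 bp counted as 1, the share was 3.96%, the median width 372 bp, the median spacing 220 bp and the share at high background 29.5%. With regions under 500 bp apart joined, the share was 6.33%, the median width 391.5 bp, the median spacing 227 bp, the median evenness 0.857, the median fold 2.60 and the share with a neighbour 24.2%.

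Evenness was 0.897 by fold and 0.827 by pileup minus background. The outer 10% at each end held 19.7% and the outer 30% held 70.0%. A neighbour lay within 1 kb of 20.6% and within 20 kb of 51.6%. The mean fold over a region's summits had a median of 2.38. In all, 38 values moved by more than their 95% interval, or for the count by more than 1.5 times, and 34 did not. The windows around summits with CCAAT were not run. No paired analysis was possible because each group has 1 library, which also means that none could be omitted.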
